A study of Mus musculus with 12 samples.

Results

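The FoxO transcription factors and the genes of muscle wasting that act with them were followed in C2C12 cells, an established mouse myoblast line that can be driven to form muscle fibres in culture. Members were 10 genes taken by name: the factors Foxo1, Foxo3 and Foxo4, the ubiquitin ligase genes Fbxo32, Trim63, Fbxo30 and Fbxo21, and the transcriptional regulators Klf15, Bcl6 and Cited2. They are 10 of the 38481 genes to which the listed transcripts could be assigned, and 7 of them are among the 13247 genes tested. RNA was sequenced in 4 groups of 3 libraries, in which an siRNA was crossed with a drug. One siRNA targeted Crebl2, which encodes a small bZIP protein related to CREB, and a single sequence, named Crebl2 siRNA 1, stood for it in these libraries. The control siRNA targeted Renilla Luciferase (Luc), a gene that mouse cells do not have. The cells kept the siRNA for 3 days and then met 20 nM rapamycin, which inhibits mTOR, the kinase that promotes growth when nutrients are plentiful, or its solvent ethanol for 12 h. Cells that carried the Luc siRNA are called control cells below and those that carried the Crebl2 siRNA silenced cells, and each kind was sampled under ethanol and under rapamycin. All 4 groups were cultures of the same line, and none went without an siRNA.

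FoxO proteins are forkhead transcription factors that bind DNA and switch on genes for protein breakdown, autophagy and stress defence. Growth factor signalling through PI3K and AKT phosphorylates them and keeps them out of the nucleus, so that their targets rise when that signal falls. In skeletal muscle the best known targets are Fbxo32, which encodes atrogin-1, and Trim63, which encodes MuRF1, both ubiquitin ligases that mark muscle proteins for the proteasome. Transcript counts report RNA levels and hold no information on where a FoxO protein sits or whether it is phosphorylated.

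Totals ranged from 33404087 to 42891015 counts per library, and no library stood apart on the first principal components, which carried 41.6% and 26.3% of the variance. The target check held in every library: Crebl2 stood at 23.8, 25.3 and 26.2 CPM (count rates after TMM scaling) in control cells under ethanol and at 4.87, 7.41 and 6.02 CPM in silenced cells. In rapamycin it stood at 40, 36.4 and 36.3 CPM in control cells and at 10.7, 8.97 and 9.49 CPM in silenced cells. The siRNA thus lowered Crebl2 4.13-fold in ethanol and 3.86-fold in rapamycin, and rapamycin raised it 1.5-fold in control cells.

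What the counts can show differs between the members. Listed coding transcripts that share every exonic base with another one held no read in 99.3% of 8480 cases, against 32.0% of 31661 transcripts with bases of their own. Shared reads thus appear to be absent from the deposited counts, and a gene is measured over its countable bases, the exonic bases that belong to 1 listed transcript. Counting overlaps on the same strand only, all exonic bases were countable for Foxo1 (chr3:52268336-52353221, plus strand, GRCm38, GENCODE M21), Foxo4 (chrX:101254528-101260873, plus), Fbxo32 (chr15:58175879-58214932, minus), Bcl6 (chr16:23965052-23988852, minus) and Cited2 (chr10:17723218-17725674, plus), each with 1 listed transcript. The strand setting is not given in the sources used here, and with overlaps on either strand the share is 92.2% for Foxo1, 97.3% for Fbxo32 and 99.4% for Bcl6. Foxo3 (chr10:42181841-42276755, minus) was countable over 60.8% of its bases, and 99.68% of its reads came from the longest of 4 transcripts. Fbxo30 (chr10:11281330-11298052, plus), which encodes the F-box ligase MUSA1, was countable over 54.7% and held only 169 to 307 counts per library.

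Trim63 (chr4:134315120-134329629, plus), Fbxo21 (chr5:117976730-118010201, plus) and Klf15 (chr6:90462576-90475238, plus) were not measured. Their listed transcripts overlap almost entirely, which leaves 31 of 1886, 76 of 3959 and 479 of 2754 exonic bases countable, and no library holds a count for them. Those zeros say nothing about expression, so MuRF1, the F-box ligase of Fbxo21 and KLF15, a glucocorticoid-induced regulator of amino acid breakdown, have no values here.

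Among the measured members, levels per countable kilobase were compared in control cells under ethanol. Cited2, which encodes a cofactor that binds CBP and p300, was the highest at 258 ± 17.1 CPM per kilobase (SD, n = 3). Foxo4 followed at 30.1 ± 1.19, Fbxo32 at 18.8 ± 1.42, Foxo3 at 15.9 ± 0.739 and Bcl6 at 13.1 ± 0.176. Foxo1 stood at 7.13 ± 0.125 and Fbxo30 at 2.67 ± 0.214. The ranges over the 3 libraries did not meet between any neighbours in this order, which is a comparison between genes and depends on the countable bases. In control cells under rapamycin, Fbxo32 (34.4 ± 0.773) and Foxo4 (32.4 ± 0.903) changed places.

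A 7-base word, GAAATGT, is shown for the members because it occurs in the Crebl2 coding sequence and an earlier analysis of these same libraries had singled it out among genes lowered by the Crebl2 siRNA. Its sites in the 3′ UTRs of the measured members are given below from GRCm38 with 11 bases on each side, on the transcript's strand, 5′ to 3′, with the word in capitals.
Foxo3, chr10:42185380-42185408: aggagaaaagaGAAATGTgtgcctgttct
Foxo3, chr10:42182342-42182370: tatgtacgtggGAAATGTggacaggtgtg
Foxo4, chrX:101259841-101259869: gcaatgctgttGAAATGTgaagtcaccag
Fbxo32, chr15:58180194-58180222: ctggggtggggGAAATGTttttatatttt
Fbxo30, chr10:11295597-11295625: ccttaatatttGAAATGTgtgaaattgtt
Bcl6, chr16:23965341-23965369: ctgcagaaggaGAAATGTatacttttgtt
Crebl2 coding sequence, across an intron of chr6:134849284-134851091: gagaggaactgGAAATGTacaagcagtgg
Foxo1 and Cited2 have no match in their 3′ UTRs of 6240 and 919 bases. Thus 5 of the 7 tested members carry the word, against 18.8% of all tested genes with an annotated 3′ UTR, and they include Foxo3 and Fbxo32 with 3′ UTRs of 4490 and 5587 bases. The 18.8% is not matched for length, with which carriage of the word rises. Under 1000 bases 315 tested genes carry it and 4823 do not, and at 4000 bases or more 450 do and 387 do not.

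Across the 5 comparisons, rapamycin moved the members mainly upward and the Crebl2 siRNA mainly downward. The exceptions were Fbxo32, which rose with the siRNA under rapamycin, and Fbxo30, which fell with rapamycin in silenced cells. Calls are those of edgeR's quasi-likelihood test, with p adjusted by Benjamini-Hochberg over all 13247 genes and held against 0.05. Rapamycin raised 4 of the 7 members and lowered 0 in control cells, where 19.5% of all tested genes were called higher and 21.6% lower. In silenced cells it raised 6 and lowered 1, where 19.7% of all genes were called higher and 25.6% lower. The Crebl2 siRNA raised 0 and lowered 4 in ethanol, against 21.4% and 17.0% of all genes. In rapamycin it raised 1 and lowered 4, against 16.3% and 16.8%. The median change of the 7 members was 0.31 and 0.43 (log2) for rapamycin in control and in silenced cells, where the medians of all tested genes were 0.02 and −0.01. For the siRNA it was −0.19 in ethanol and −0.17 in rapamycin, beside 0.01 and −0.01. The comparisons share libraries: each group enters 2 of them, so that control cells under ethanol are the reference of both the siRNA effect in ethanol and the rapamycin effect in control cells.

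**Figure D1:**
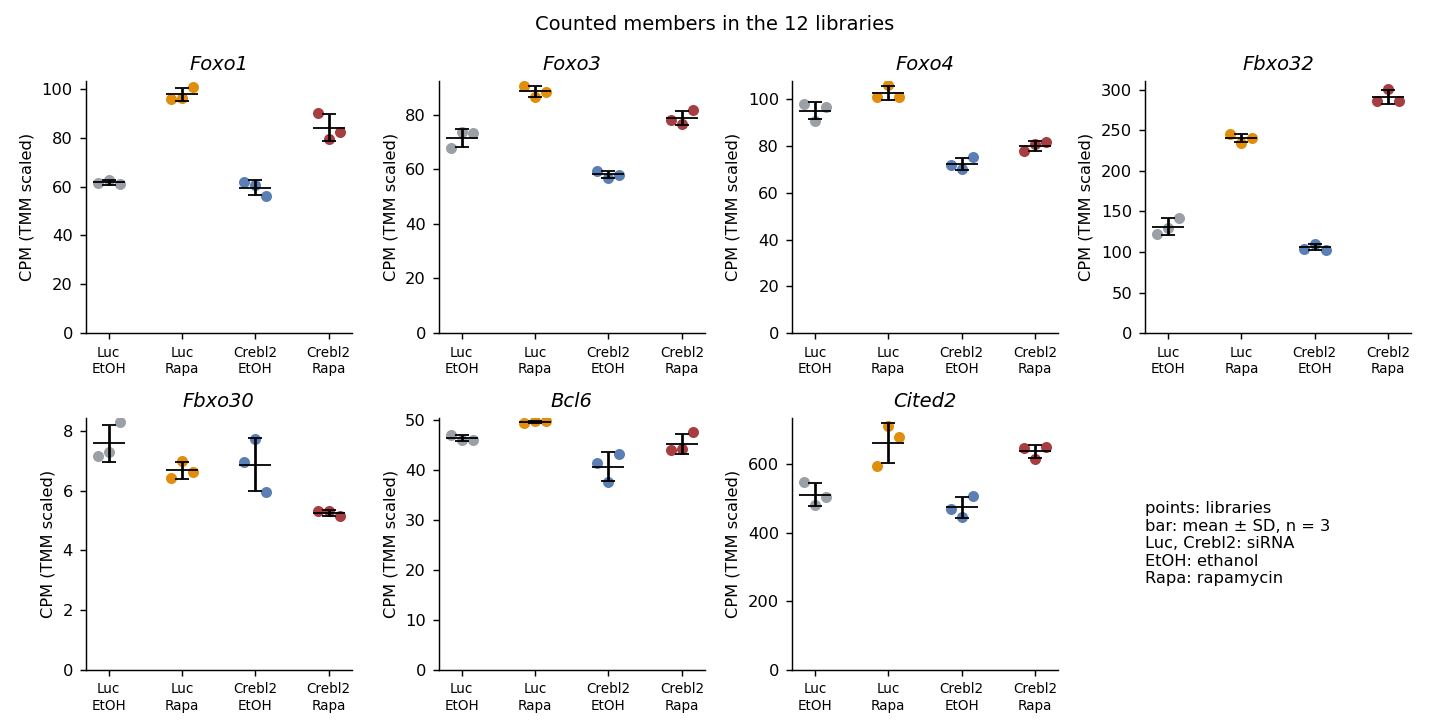
Level of each of the 7 counted members (vertical axis, CPM after TMM scaling, from 0) in the 4 groups; points are libraries and bars the mean ± SD of 3. Foxo1, Foxo3, Fbxo32 and Cited2 stand higher in rapamycin than in ethanol in control and silenced cells alike, and only Fbxo32 has its highest libraries with both the Crebl2 siRNA and rapamycin.

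Of the 3 factors, Foxo1 had the largest changes with rapamycin. Foxo1 stood at 61.4, 62.9 and 60.9 CPM in control cells under ethanol and at 61.8, 60.7 and 56.0 CPM in silenced cells. In rapamycin its levels were 96.0, 96.3 and 101 CPM in control cells and 90.3, 79.5 and 82.4 CPM in silenced cells. All rapamycin libraries lie above all ethanol libraries, and the 2 siRNA groups overlap in ethanol but not in rapamycin. Rapamycin raised Foxo1 1.58-fold in control cells (log2 0.66 with an SE of 0.05, edgeR adjusted p = 8.6e-08) and 1.41-fold in silenced cells (0.50, SE 0.05, adjusted p = 1.5e-06). The Crebl2 siRNA lowered Foxo1 in rapamycin by a log2 change of −0.22 (SE 0.05, edgeR adjusted p = 0.0051). In ethanol the change was −0.05, with a 95% interval from −0.17 to 0.06 and an adjusted p of 0.47. The difference between these siRNA effects, the interaction, was −0.16 (interval −0.32 to 0.00, adjusted p = 0.34) and did not pass. The call for the siRNA in rapamycin was lost without replicate 3 of the control cells (−0.16, adjusted p = 0.063) or without replicate 2 (−0.15, 0.073) or 3 (−0.17, 0.059) of the silenced cells under rapamycin.

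Foxo3, the factor most often linked to atrogin-1 in muscle, moved with both treatments. It stood at 67.7, 73.8 and 73.1 CPM in control cells under ethanol, and at 59.5, 56.8 and 58.0 CPM in silenced cells. In rapamycin it stood at 90.6, 86.6 and 88.2 CPM in control cells, and at 78.0, 76.7 and 81.8 CPM in silenced cells. No pair of groups compared here overlaps for Foxo3. Rapamycin raised it 1.24-fold in control cells (adjusted p = 6.5e-05 by edgeR) and 1.36-fold in silenced cells (adjusted p = 1.4e-06). The Crebl2 siRNA lowered it 1.23-fold in ethanol (log2 −0.30, SE 0.05, adjusted p = 0.00012) and 1.12-fold in rapamycin (−0.17, SE 0.05, adjusted p = 0.012). The interaction of 0.13 (interval −0.01 to 0.27, adjusted p = 0.37) was not called. Without replicate 1 or 3 of the control cells under rapamycin the siRNA effect there was −0.12 or −0.14 and no longer called (adjusted p = 0.12 and 0.073), and so it was without replicate 1 or 2 of the silenced cells (−0.12 in both, adjusted p = 0.098 and 0.11) or with no count filter (−0.14, adjusted p = 0.095).

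Foxo4 was lower wherever the Crebl2 siRNA was used. In ethanol it stood at 97.9, 90.9 and 96.7 CPM in control cells and at 71.7, 70.2 and 75.3 CPM in silenced cells. In rapamycin the levels were 101, 106 and 101 CPM in control cells and 77.8, 80.8 and 81.8 CPM in silenced cells. Every library of silenced cells lies below every library of control cells, under ethanol or rapamycin. The siRNA lowered Foxo4 1.31-fold in ethanol (log2 −0.39, SE 0.05, edgeR adjusted p = 8.2e-06) and 1.28-fold in rapamycin (−0.36, SE 0.05, adjusted p = 2.6e-05). The rapamycin change was 0.11 in control cells (interval 0.01 to 0.20, adjusted p = 0.071) and 0.15 in silenced cells (interval 0.05 to 0.24, adjusted p = 0.017). Its interaction of 0.04 (interval −0.10 to 0.18) had an adjusted p of 0.85. The rapamycin call in silenced cells was lost without replicate 1 (0.14, adjusted p = 0.052) or 2 (0.12, 0.063) of the silenced cells under ethanol.

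Among the ligase genes, Fbxo32 rose with rapamycin by more than any other member. Fbxo32 stood at 122, 130 and 142 CPM in control cells under ethanol and at 104, 110 and 103 CPM in silenced cells. In rapamycin it stood at 245, 235 and 241 CPM in control cells and at 286, 301 and 286 CPM in silenced cells. The groups do not overlap, and the order of the siRNA groups turns over: the silenced libraries are the lowest in ethanol and the highest in rapamycin. The siRNA lowered Fbxo32 1.24-fold in ethanol (log2 −0.31, SE 0.05, edgeR adjusted p = 0.00028) and raised it 1.21-fold in rapamycin (0.28, SE 0.05, adjusted p = 0.00072).

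Rapamycin raised Fbxo32 1.83-fold in control cells (log2 0.87, SE 0.05, edgeR adjusted p = 3.5e-09) and 2.75-fold in silenced cells (1.46, SE 0.05, adjusted p = 2.7e-11). By p the last of these ranked 17 of 13247 genes. The interaction, the rapamycin change in silenced cells minus that in control cells, was 0.59 (SE 0.07, interval 0.43 to 0.75, adjusted p = 0.001) and ranked 13 by p. An interaction was called for 159 genes, 1.20% of those tested, and Fbxo32 was the only called member among the 7. The 159 divide into 81 higher and 78 lower, a balance that depends on the setting: 89 and 49 with RLE scaling, 310 and 105 with no count filter, 136 and 35 for single transcripts, 70 and 18 without replicate 3 of the control cells under rapamycin, and 89 and 109 among genes with at least 90% countable bases. Over the 7 other settings fitted for it and the 12 left-out libraries its interaction lay between 0.53 and 0.66, with adjusted p up to 0.0058.

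**Figure D2:**
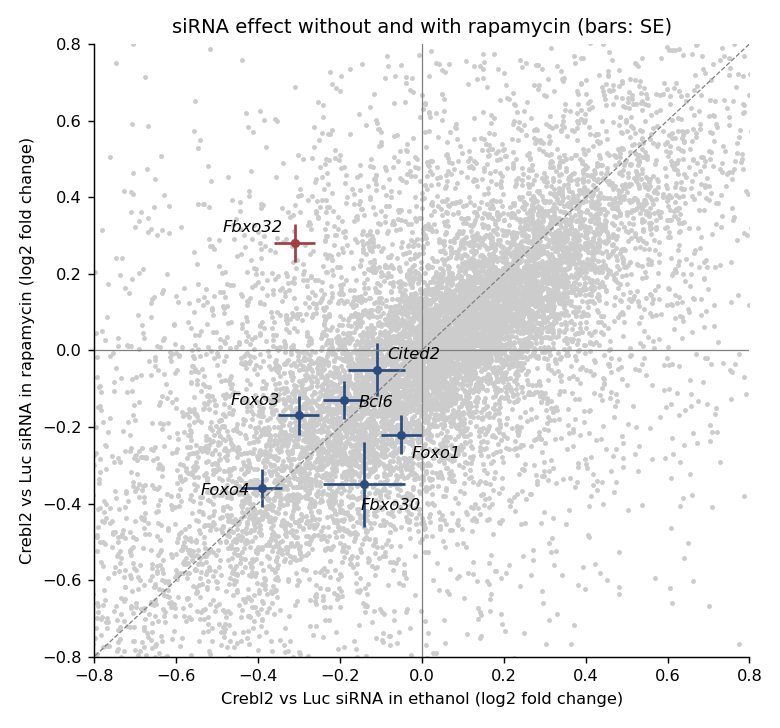
Log2 difference of silenced from control cells in ethanol (horizontal) against that in rapamycin (vertical) for all tested genes (grey) and the 7 members (coloured, bars are SE); genes beyond 0.8 in either direction lie outside the axes and the dashed line marks equal effects. Fbxo32, at −0.31 and 0.28, lies in the upper left, and the other 6 members lie in the lower left.

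Fbxo30 ran at low counts and in the other direction. It stood at 7.16, 7.30 and 8.28 CPM in control cells and at 6.94, 7.71 and 5.94 CPM in silenced cells under ethanol. In rapamycin it stood at 6.43, 6.98 and 6.61 CPM in control cells and at 5.31, 5.31 and 5.14 CPM in silenced cells. The libraries with both treatments are the lowest, and those of the 2 ethanol groups overlap. Fbxo30 fell by 0.38 (log2, SE 0.11, edgeR adjusted p = 0.0081) with rapamycin in silenced cells, and the siRNA lowered it in rapamycin (−0.35, SE 0.11, adjusted p = 0.021). The change was −0.14 with the siRNA in ethanol (adjusted p = 0.30) and −0.18 with rapamycin in control cells (adjusted p = 0.18), with intervals from −0.36 to 0.07 and from −0.40 to 0.04. Its interaction was −0.20 (interval −0.52 to 0.12, adjusted p = 0.60). Neither call is firm. Leaving out any 1 of the 6 rapamycin libraries ended the siRNA call there, with values between −0.34 and −0.28 and adjusted p between 0.055 and 0.11, and so did dropping the count filter (−0.31, adjusted p = 0.065). The rapamycin effect in silenced cells was −0.33 (adjusted p = 0.051) without replicate 3 of the silenced cells under rapamycin.

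Of the regulators, Bcl6, a zinc finger repressor, moved little. It stood at 47.0, 46.0 and 45.9 CPM in control cells and at 41.3, 37.5 and 43.1 CPM in silenced cells under ethanol. In rapamycin the values were 49.4, 49.7 and 49.7 CPM in control cells and 43.9, 44.2 and 47.5 CPM in silenced cells. The silenced groups were the lower ones in ethanol and in rapamycin, without overlap. The siRNA lowered Bcl6 1.14-fold in ethanol (log2 −0.19, SE 0.05, edgeR adjusted p = 0.013), and in rapamycin the change was −0.13 (interval −0.25 to −0.02, adjusted p = 0.069). The latter passed at a minimum count of 50 and among genes with at least 90% countable bases (adjusted p = 0.042 in both), and without replicate 2 of the silenced cells under ethanol (0.035). Rapamycin raised it in silenced cells (0.15, adjusted p = 0.033), and the change in control cells was 0.10 (interval −0.02 to 0.21, adjusted p = 0.16). The interaction was 0.05 (adjusted p = 0.82). The siRNA call was lost without replicate 2 of the silenced cells under ethanol (−0.13, adjusted p = 0.059). That for rapamycin in silenced cells was lost without replicate 1 (0.16, 0.054) or 2 (0.096, 0.15) of the same group or replicate 3 of the silenced cells under rapamycin (0.15, 0.06).

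Cited2 passed the test for rapamycin and not for the siRNA. In control cells it stood at 548, 481 and 505 CPM in ethanol and at 596, 712 and 679 CPM in rapamycin. In silenced cells it stood at 470, 446 and 508 CPM in ethanol and at 649, 616 and 650 CPM in rapamycin. Rapamycin libraries lie above the ethanol libraries in control and silenced cells alike, and the siRNA groups overlap under both conditions. Rapamycin raised Cited2 1.29-fold in control cells (log2 0.37, SE 0.07, edgeR adjusted p = 0.00034) and 1.34-fold in silenced cells (0.43, SE 0.07, adjusted p = 8.2e-05). The siRNA changes were −0.11 in ethanol (interval −0.25 to 0.04, adjusted p = 0.24) and −0.05 in rapamycin (interval −0.20 to 0.09, adjusted p = 0.59). The interaction was 0.05 with an adjusted p of 0.86.

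**Figure D3:**
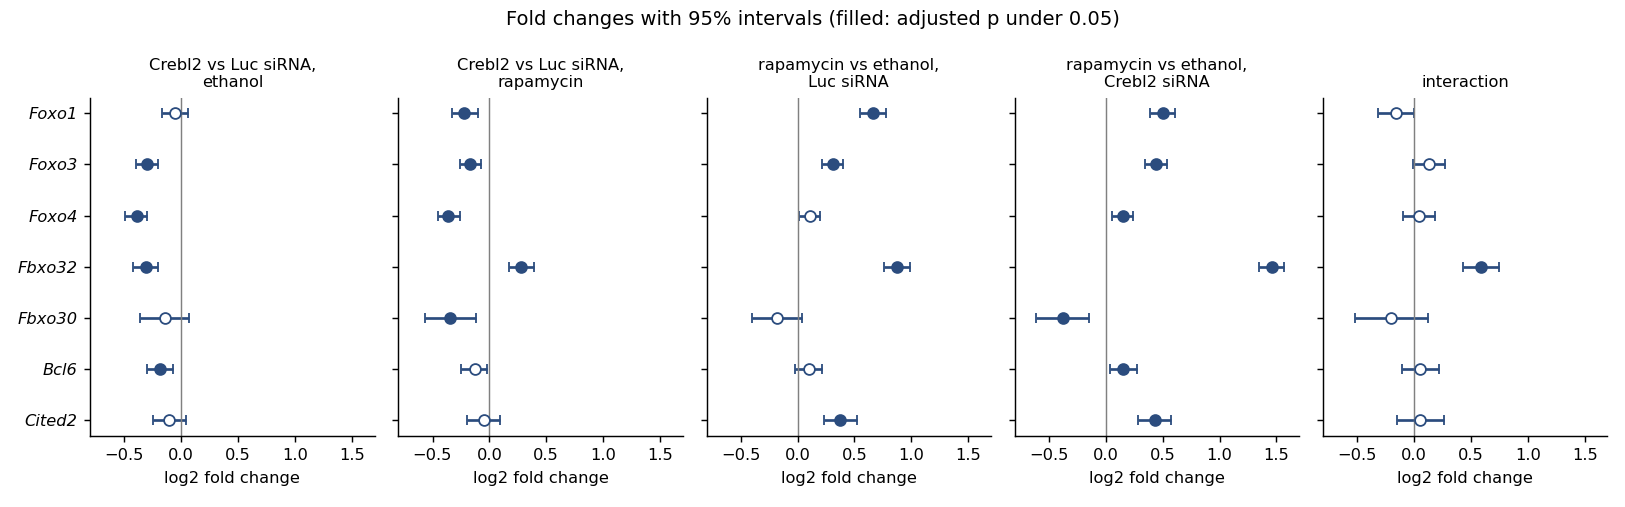
Log2 fold changes of the 7 counted members (rows) in the 4 comparisons and the interaction, with 95% intervals from the edgeR fit; filled points have an adjusted p under 0.05. Fbxo32 has the only filled point in the interaction panel, at 0.59.

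Counted over members, the falls with the siRNA in rapamycin were the least firm of these results. The count of 4 lower members became 1 without replicate 3 of the control cells or replicate 2 of the silenced cells under rapamycin, and 2 without replicate 1 of either rapamycin group or replicate 3 of the silenced one. The single fall with rapamycin in silenced cells, that of Fbxo30, became 0 without replicate 3 of the silenced cells under rapamycin. With a library left out, the members raised by rapamycin in silenced cells numbered 4 to 6. Those lowered by the siRNA in ethanol numbered 3 to 4.

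**Figure D4:**
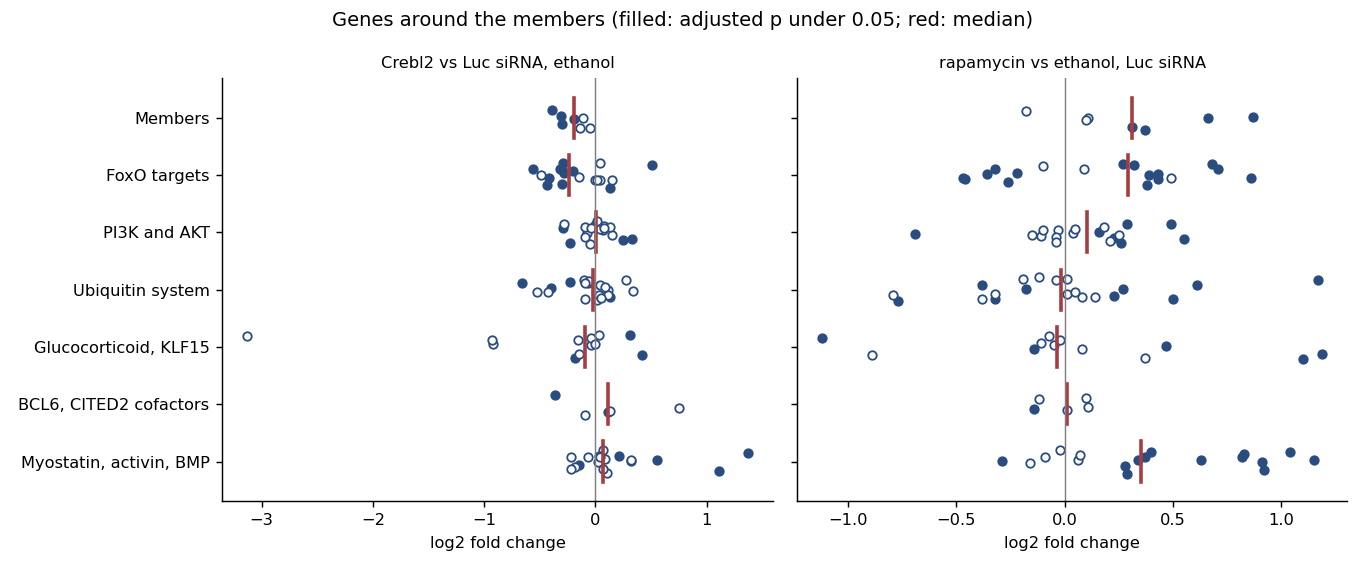
Log2 change of each tested gene (points) of the members and of 6 lists around them, for the Crebl2 siRNA in ethanol (left) and for rapamycin in control cells (right); filled points have an adjusted p under 0.05 and red bars are list medians. The FoxO target genes have a median of −0.24 on the left and 0.30 on the right.

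FoxO target genes outside the members, a list of 24 of which 18 were tested, moved in both directions. Of the 18, the Crebl2 siRNA lowered 9 and raised 2 in ethanol, where 17.0% of all tested genes were lower and 21.4% higher, and the counts were again 9 and 2 in rapamycin, against 16.8% and 16.3%. The medians were −0.24 and −0.16. Rapamycin raised 9 and lowered 6 in control cells (median 0.30), against 19.5% and 21.6% of all genes, and raised 9 and lowered 5 in silenced cells (median 0.17), against 19.7% and 25.6%. The counts of the lists that follow are to be read against the same shares of all tested genes. None of the 18 tested FoxO target genes had a called interaction. The largest rise with rapamycin was that of Irs2, the insulin receptor substrate that links the receptor to PI3K, from 62.1 ± 0.541 to 112 ± 4.18 CPM in control cells (log2 0.86, SE 0.06, edgeR adjusted p = 1.2e-08), and 0.96 in silenced cells. The largest fall with the siRNA was that of Sesn3, a sestrin that restrains mTOR signalling, at −0.56 in ethanol (adjusted p = 2.1e-05) and −0.83 in rapamycin (adjusted p = 6.2e-07). Its level went from 124 ± 6.34 to 83.9 ± 6.0 CPM in ethanol and from 103 ± 9.30 to 58.1 ± 4.46 CPM in rapamycin. Sesn3 also fell with rapamycin, at −0.26 in control cells and −0.53 in silenced cells (edgeR adjusted p = 0.0085 and 2.6e-05).

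Other members of that list went against these directions. Ctsl, which encodes the lysosomal protease cathepsin L, rose with the siRNA in ethanol (0.51, SE 0.04, edgeR adjusted p = 1.5e-07). Bbc3, a pro-apoptotic BCL2 family gene, rose with it in rapamycin (0.32, SE 0.09, adjusted p = 0.012). Gadd45a, a DNA damage response gene with 33.1% countable bases, fell with rapamycin in control cells (−0.47, SE 0.09, adjusted p = 0.00044). Sesn1, a second sestrin gene, with 38.4% countable bases, fell with rapamycin in silenced cells (−0.59, SE 0.09, adjusted p = 8e-05).

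Upstream, 18 of 22 genes of PI3K and AKT signalling were tested, and rapamycin raised 6 and lowered 1 in control cells (median 0.11) and raised 6 and lowered 3 in silenced cells (median 0.09). The rises exceed the 19.5% and 19.7% of all genes, and the falls are below the 21.6% and 25.6%. Irs1, the other main insulin receptor substrate, rose from 369 ± 24.4 to 541 ± 17.8 CPM in control cells (log2 0.55, SE 0.07, edgeR adjusted p = 6.5e-06). Akt2, an AKT kinase gene of which 36.7% of the bases are countable, fell with rapamycin by 0.69 in control cells and by 0.78 in silenced cells (adjusted p = 0.00095 and 0.00038). Sgk1, a kinase gene related to AKT with 43.5% countable bases, rose with rapamycin in silenced cells (0.79, adjusted p = 0.0045) and with the siRNA in rapamycin (0.74, adjusted p = 0.01). Its libraries overlap in the latter comparison, at 1.74 to 2.37 CPM in control cells and 2.34 to 4.41 CPM in silenced cells. The siRNA raised 2 and lowered 2 of the 18 in ethanol, with Rictor, an mTOR complex subunit, at 0.33 and Pik3r2, a PI3K regulatory subunit, at −0.29. In rapamycin it raised 3 and lowered 1, and the fall was that of Pik3r1, another regulatory subunit, at −0.27. These siRNA counts are near or below the shares of all genes.

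In the ubiquitin system of muscle protein loss, 20 of 26 genes were tested. The siRNA raised 1 and lowered 3 in ethanol and raised 2 and lowered 6 in rapamycin. Rapamycin raised 5 and lowered 4 in control cells and raised 7 and lowered 4 in silenced cells. Against all tested genes, the siRNA's rises were fewer than the 21.4% and 16.3%, its falls in ethanol were close to the 17.0% and those in rapamycin above the 16.8%. The rapamycin counts were close to the 19.5% and 21.6% in control cells and, for the rises in silenced cells, above the 19.7%. The list's medians lay between −0.02 and 0.06 in these 4 comparisons. Trim55, which encodes MuRF2, a close relative of MuRF1, was the only gene of the list with a called interaction (0.58, SE 0.08, interval 0.40 to 0.75, edgeR adjusted p = 0.0027).

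Trim55 stood at 91.6 ± 1.73 CPM in control cells under ethanol, 69.5 ± 5.38 in silenced cells under ethanol, 70.3 ± 3.85 in control cells under rapamycin and 79.5 ± 3.79 with both treatments. The siRNA lowered it in ethanol (log2 −0.40, SE 0.06, edgeR adjusted p = 7e-05) and raised it in rapamycin (0.18, SE 0.06, adjusted p = 0.029), as with Fbxo32. Unlike Fbxo32, Trim55 fell with rapamycin in control cells (−0.38, SE 0.06, adjusted p = 7.2e-05).

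Among the other genes named from the ubiquitin list, Capn3, the muscle calpain, changed by 1.17 and 1.07 (log2) with rapamycin in control and in silenced cells and by −0.66 and −0.76 with the siRNA in ethanol and in rapamycin, but only 3.8% of its bases are countable. Rbx1, the RING subunit of cullin ligases, rose with the siRNA in ethanol by 0.13.

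Glucocorticoid and KLF15 genes were called at shares near those of all tested genes. Of 15 listed, 12 were tested: the siRNA raised 2 and lowered 1 in ethanol and raised 2 and lowered 2 in rapamycin, and rapamycin raised 3 and lowered 2 in control and silenced cells alike. Ddit4, which encodes the mTOR inhibitor REDD1, fell with rapamycin by 1.12 (log2, SE 0.06, edgeR adjusted p = 1.3e-09) in control cells and by 0.92 in silenced cells, and rose with the siRNA in rapamycin by 0.51. Cebpd, a C/EBP factor, rose with rapamycin by 1.10 and 1.21. Klf9, a glucocorticoid-induced Krüppel-like factor, rose with the siRNA in ethanol (0.42, SE 0.07, adjusted p = 0.00012). Cebpb, another C/EBP factor, was called lower with the siRNA in rapamycin (−1.0, SE 0.37, adjusted p = 0.048), but its control libraries spread from 55.2 to 194 CPM there and overlap the silenced ones at 49.5 to 65.8 CPM. Gpt2, an alanine aminotransferase gene, fell with it in ethanol (−0.18, SE 0.04, adjusted p = 0.0028).

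Of 10 cofactors of BCL6 and CITED2, 5 were tested, and the siRNA raised 1 and lowered 1 in both conditions while rapamycin lowered 1 in control and silenced cells alike. Crebbp, which encodes the acetyltransferase CBP, with 28.4% countable bases, fell with the siRNA in ethanol (−0.36, edgeR adjusted p = 0.011) and in rapamycin (−0.34, adjusted p = 0.018). Hdac3, a histone deacetylase of corepressor complexes, fell with rapamycin by 0.14 and 0.27 in control and in silenced cells and rose by 0.11 with the siRNA in ethanol.

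Myostatin, activin and BMP signalling also feeds into muscle mass, and rapamycin raised 12 of its 18 tested genes (of 20 listed) and lowered 1 in control cells, with a median of 0.35. In silenced cells it raised 11 and lowered 2, with a median of 0.29. Smad6, an inhibitory SMAD, rose from 31.6 ± 4.21 to 64.8 ± 11.7 CPM in control cells (log2 1.04, SE 0.12, edgeR adjusted p = 6.9e-06). Inhbb, an activin subunit, rose by 1.05 in silenced cells (adjusted p = 7.9e-08), and Gdf11, a ligand close to myostatin, fell by 0.29 and 0.46. The siRNA raised 4 and lowered 1 in ethanol and raised 4 and lowered 2 in rapamycin. The largest rise was that of Fst, follistatin, which binds activins and myostatin, at 1.37 in ethanol and 1.35 in rapamycin (SE 0.07, adjusted p = 2.8e-09 and 1.5e-09). Smad3, an activin signal transducer, fell by 0.15 in ethanol and Tgfbr1, a type I receptor, by 0.26 in rapamycin.

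The state of the muscle cells moved with both treatments. The 10 markers of muscle differentiation summed to 644 to 798 CPM in control cells and 95.6 to 115 CPM in silenced cells under ethanol. Under rapamycin the sums were 230 to 275 CPM in control cells and 54.2 to 67.9 CPM in silenced cells. In control cells under ethanol Acta1, Myog, Myom2 and Actc1 made up most of the sum, with means of 287, 203, 161 and 72.6 CPM. Myh3 and Tnnt3 added almost nothing there, at 0.00793 and 0.0243 CPM. The siRNA lowered 7 of the 7 tested in ethanol and 6 in rapamycin, and rapamycin lowered 7 in control cells and 6 in silenced cells, so Fbxo32 rose with rapamycin while these markers fell. Fewer differentiating cells and less RNA per cell cannot be told apart in bulk RNA. Myog, the myogenic factor of early differentiation, fell from 203 ± 22.5 to 20.1 ± 4.19 CPM with the siRNA in ethanol and from 74.5 ± 6.13 to 8.96 ± 2.48 CPM in rapamycin (log2 −3.06 in rapamycin, edgeR adjusted p = 3.3e-09). Actc1, the cardiac actin of young muscle fibres, fell by 3.53 with the siRNA in ethanol and by 2.13 with rapamycin in control cells, with an interaction of 1.27 (adjusted p = 0.0029). Of the 7 tested markers, 3 had a called interaction, all of the same sign as that of Fbxo32, and the median was 0.50. The siRNA raised 0 of the 7 in ethanol and 0 in rapamycin, where it raised Fbxo32. Mymk, the fusion factor myomaker with 28.5% countable bases, fell by 1.62 with rapamycin in silenced cells.

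The 5 markers of myoblasts were all present, at a summed 3940 to 4260, 3590 to 4140, 2930 to 3270 and 3360 to 3530 CPM in the same group order. The label of a myoblast culture thus fits its markers. Myod1, the factor that sets myoblast identity, fell with the siRNA in ethanol by 0.28 and rose with rapamycin in silenced cells by 0.37. Itga7, a laminin receptor, fell with rapamycin by 0.81 and 0.42, Cdh15, the muscle cadherin, rose with the siRNA in rapamycin by 0.41 with a called interaction of 0.41 (edgeR adjusted p = 0.024), and Myf5, a sister factor of Myod1, fell there by 0.20. Of 17 markers of other cell types, 4 were tested, and the 17 summed to 2.58 to 6.75 CPM per library. Fabp4, a fatty acid binding protein gene of fat and endothelial cells, was the 1 called: it rose with the siRNA from 0.228 ± 0.0547 to 0.788 ± 0.133 CPM in ethanol and from 0.337 ± 0.0895 to 1.07 ± 0.409 CPM in rapamycin (edgeR adjusted p = 0.00065 and 0.00063). Ptprc and Adgre1 of blood cells and Rbfox3 and Snap25 of neurons were at 0 in all libraries. The part of the differentiation markers in the changes of the members was not tested.

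Genes with the profile nearest to each member were found by the root mean square difference in centred log2 CPM over the 12 libraries, among 7115 genes. Foxo4 had the closest neighbour, Tor4a, at 0.026, followed by Dhrs7 at 0.042. Bcl6 was nearest to Taf8 and Gpr108 (0.033 and 0.035), Foxo3 to Acp2 and Tmem59 (0.046 and 0.057) and Cited2 to Npepl1 and Plcd3 (0.046 and 0.048). Foxo1 was nearest to Klf7 and Heca (0.068 and 0.071), and Fbxo30 to Impact and Nkap (0.076 and 0.083). Fbxo32 had the most distant neighbours, Cdnf at 0.132 and Fbxl20 at 0.137, and also the largest swing of its own, 0.602 on the same measure. The interactions of Cdnf and Fbxl20 were 0.34 and 0.28, beside 0.59 for Fbxo32.

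The printed word sites can be set beside the calls. All 4 members lowered by the Crebl2 siRNA in ethanol (Foxo3, Foxo4, Fbxo32 and Bcl6) carry the word in the 3′ UTR. In rapamycin 3 of the 4 lowered members carry it, Foxo1 being the one without, and so does Fbxo32, which rose there. Of the 18 tested FoxO target genes 4 carry the word. They are 2 of the 9 lowered in ethanol (Sesn3 and Irs2) and 4 of the 9 lowered in rapamycin. In the ubiquitin list 0 of the 3 genes lowered in ethanol and 3 of the 6 lowered in rapamycin carry it. Among the 18 tested PI3K and AKT genes 4 carry it, and 0 of these were lowered in either condition. Of all tested genes with a 3′ UTR, 2042 carry the word and 8824 do not. In ethanol 23.3% of the genes with the word and 17.3% of those without were called lower, and the median changes were −0.032 and 0.038. In rapamycin the shares were 29.3% and 15.8% and the medians −0.097 and 0.013. For rapamycin against ethanol the shares called lower were 25.0% and 24.9% in control cells and 34.8% and 28.3% in silenced cells.

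**Figure D5:**
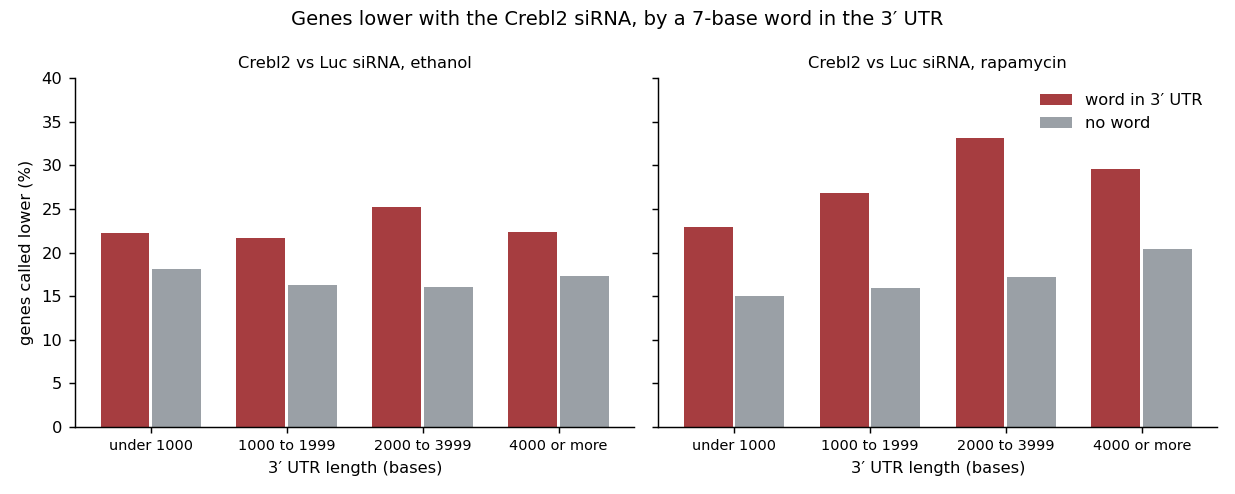
Share of tested genes called lower by the Crebl2 siRNA (vertical axis, percent, from 0) in ethanol (left) and rapamycin (right), for genes with and without the 7-base word in the 3′ UTR, in 4 classes of 3′ UTR length (horizontal axis, bases). The share is higher with the word in each class, for example 33.2% against 17.2% from 2000 to below 4000 bases in rapamycin.

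Genes with the word have longer 3′ UTRs, with medians of 2417 against 884 bases. Within the class of 4000 bases or more, which holds Foxo3, Fbxo32 and Foxo1, 22.4% of genes with the word and 17.3% of those without were lower in ethanol, and 29.6% and 20.4% in rapamycin. The word was chosen on these libraries, so the shares describe them and are no independent evidence. The sequence of the siRNA is not given in the sources used here. The part of the word in the falls of Foxo3, Foxo4, Fbxo32, Fbxo30, Bcl6 or the listed genes was not tested.

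Promoters were searched for forkhead motifs in RefSeq windows of 300 bases (GRCm38.p6), which matched 8 of the 10 members with 9 promoters. The FoxO motif GTAAACA, read on both strands, was found in 3.65% of 32851 promoters and among the members only in that of Trim63, 194 bases before the start. The insulin response motif CAAAACA was found in 6.28% of promoters and in 0 of the 9. Foxo4 and Fbxo32 have no entry in this table. A match or its absence in so short a window describes the letters only.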

How the data were processed

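Each of the 12 libraries came as unnormalized whole-number read counts per Ensembl transcript, as the authors deposited them. Trim Galore, TopHat and HTSeq, and the builds mm9 and GRCm38, are named without versions in the submitters' processing notes; the annotation release, strand setting and handling of shared reads are not given in the sources used here. Members and gene lists were chosen with earlier results of these data known.

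Of 58611 transcripts, 58264 matched GENCODE M21 (99.41%) and the other 347 held 0.038% of the reads. Counts were summed per gene, so tests planned per gene could be kept. Genes passing the edgeR filter (minimum count 10) entered 1 model of 4 group means over all 12 libraries (edgeR 4.0.16, R 4.3.3, TMM scaling, quasi-likelihood F test); common biological variation was 6.9%. Intervals are 95%, and SE is the log2 fold change over the square root of F. The fit was tested on simulated data. No source says that the replicates were separate cultures, so p-values measure the spread between these libraries, which differed by more than sampling noise. Libraries were grouped by their labels.

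Genes named were the members, Crebl2, the 2 nearest profiles per member (protein-coding, mean of at least 5 CPM), the called gene with the largest rise and fall of each list and comparison (mean of at least 1 CPM), and markers; some genes this rule picks are not reported here. Alternatives were RLE scaling, DESeq2 1.42.0, filtering at a minimum count of 50 or not at all, a replicate block, only the groups compared, at least 90% countable bases, single transcripts and leaving out each library. A comparison of FoxO protein sequences was not made here.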

Additional observations from a re-analysis of the deposited data

Results flagged for a closer look

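The effect of the Crebl2 siRNA on Fbxo32 differed between ethanol and rapamycin by a test of the difference itself: the interaction was 0.59 on the log2 scale (SE 0.07, edgeR adjusted p = 0.001). All 3 Crebl2 siRNA libraries lay below the Luc siRNA libraries in ethanol (103 to 110 against 122 to 142 CPM) and all 3 lay above them in rapamycin (286 to 301 against 235 to 245 CPM). The summed differentiation markers were lower with the siRNA in both conditions. Of the 7 tested, 3 had a called interaction of the same sign as Fbxo32 and 0 of the other (median 0.50), and so did 2 of the 5 myoblast markers. For the 7 differentiation markers only the sign is shared, since the siRNA raised 0 of them in ethanol and 0 in rapamycin. The part of these markers in the Fbxo32 difference was not tested.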

How the results depend on the processing

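The labels do not say whether equal replicate numbers pair the samples. Deviations of same-numbered libraries correlated at −0.292 to 0.124 (18 pairs, median −0.0585), against −0.315 to 0.374 for different numbers (36 pairs). That gives no sign of pairing by number, but groups of 3 libraries cannot exclude shared cultures or days. With the replicate block, the called members were the same in number in all 5 comparisons, the Fbxo32 interaction was 0.59 (adjusted p = 0.0058) and the genes with a called interaction went from 159 to 91. That count was 377 with DESeq2, 415 with no count filter and 85 to 172 with a library left out; it was over 1.5 times lower without replicate 2 of Luc in ethanol (94), replicate 3 of Luc in rapamycin (88), replicate 1 of the Crebl2 siRNA in ethanol (102) or replicate 3 of the Crebl2 siRNA in rapamycin (85). RLE scaling moved no member by more than 0.03, and for the siRNA in rapamycin it moved each of them upward, by 0.029 to 0.03. The shares of all tested genes that stand beside the members and lists also depend on the setting. For the siRNA in ethanol, 2836 higher and 2246 lower genes became 2254 and 2274 with only the groups compared. For the siRNA in rapamycin, 2157 higher and 2228 lower genes became 2486 and 1939 with RLE scaling. With a rapamycin library left out, 50.3% to 50.8% of the genes called for the siRNA in ethanol were higher, although that comparison holds no such library. With an ethanol library left out the share was 55.7% to 57.9%. For the siRNA in rapamycin these shares were 54.7% to 58.1% and 49.0% to 49.6%. The members lower with the siRNA in rapamycin numbered 2 with no count filter and 1 to 5 with a library left out. The members lower with rapamycin in Crebl2 siRNA cells numbered 0 among genes with at least 90% countable bases, where 5 members were tested and Fbxo30 was not, and 0 to 1 with a library left out. Values that changed sign were those of Cited2 for the siRNA in rapamycin without replicate 2 of Luc in rapamycin (0.035; range over the left-out libraries −0.091 to 0.035), Foxo6 for the same comparison without replicate 1 of Luc in rapamycin (−0.11; −0.11 to 0.31), and the interactions of Bcl6 without replicate 2 (−0.0027; −0.0027 to 0.13) and of Crebl2 without replicate 1 (−0.044; −0.044 to 0.25) of the Crebl2 siRNA in ethanol; none of these 4 was called. Calls of single members that a left-out library ended are given with each gene. The cause was not tested. Fbxo30 had the fewest counts of the measured members, at 169 to 307 per library, and the part of depth was not tested.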

Other observations

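Foxo6, the FoxO gene that was not among the members, looked at after its values were seen, fell with rapamycin in control cells, where Foxo1 and Foxo3 rose. It stood at 32.4, 23.7 and 20.4 CPM in control cells under ethanol and at 14.0, 14.2 and 16.6 CPM in silenced cells. In rapamycin it stood at 8.04, 14.1 and 9.98 CPM in control cells and at 11.3, 11.1 and 10.4 CPM in silenced cells. The Luc siRNA libraries in ethanol are the highest and do not overlap the others, and the 2 rapamycin groups overlap. Rapamycin lowered Foxo6 2.37-fold in control cells (log2 −1.25, SE 0.18, edgeR adjusted p = 3.5e-05), and the siRNA lowered it 1.71-fold in ethanol (−0.77, SE 0.17, adjusted p = 0.0022). The siRNA change in rapamycin was 0.03 (interval −0.37 to 0.42, adjusted p = 0.93), and the interaction of 0.80 (interval 0.26 to 1.34, adjusted p = 0.15) was not called. The interaction passed with no count filter (0.86, adjusted p = 7.8e-09) and without replicate 2 of the control cells under rapamycin (1.11, adjusted p = 0.015). In silenced cells the rapamycin change was −0.45 (adjusted p = 0.056), and it passed under 7 alternatives, among them a fit of only the groups compared (−0.41, adjusted p = 0.0015) and no count filter (−0.43, adjusted p = 1.9e-05).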
